A study of Mus musculus with 12 samples.

Results

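Chromosome 4 was followed gene by gene through ovaries of mice that carry the PgrBLsL allele, in a study on constitutive expression of progesterone receptor isoforms, using a list of 48 genes spread along this mouse chromosome. The chromosome was chosen by the measured difference of stage II from control, since chromosome 4 as a whole stood lower in stage II tumors on these same arrays. The stage II values are therefore given as a description with no test. A gene was included where a probe set named only that gene, and the brightest such probe set, by its mean over the 12 arrays, stood for it. This left 36 of the 48 genes, among 626 measured genes of chromosome 4 and 10949 measured genes in all. The RefSeq gene table placed all 36 on chromosome 4, as the label of the list says. Prdx1, which encodes a peroxiredoxin, had a probe set shared with another symbol and was left out. Lyn, Galt, Tln1, Plin2, Jak1, Plk3, Psmb2, Hdac1, Ece1, Mfn2 and Eno1 were not analysed here.

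The ovaries came from 23-week-old females in diestrus, a quiescent part of the estrous cycle, with 1 array for each sample. There were 3 stage II tumor ovaries and 3 stage I tumor ovaries of genotype Pgrcre/+PgrBLsL/+, and 6 control ovaries of genotype Pgrcre/+ with no tumor. All 12 carried the Pgrcre allele, in which Cre recombinase is driven from the Pgr locus, so the controls were not wild type. All PgrBLsL ovaries were staged tumors, so the effects of tumor and of allele cannot be told apart. The labels call the arrays of a group bioreplicates. The labels do not tie arrays to litters, and p-values set the group differences against the spread between these samples.

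Each gene's level in a bulk tissue reflects the chromosome copies, the activity of each copy and the mix of cells. Neighbouring genes on a chromosome are a mixed company in function, and their shared position is what the list has in common. Mouse chromosomes have their centromere at one end, so the order of genes can be read from the centromere end to the far telomere. Chromosome 4 of the mouse carries genes for metabolism, protein turnover, signalling, RNA processing, cell cycle control and the cytoskeleton, and the members hold examples of each.

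Promoter sequences are shown for 4 members. They lay farthest from the rest of the chromosome in stage II among those departing from it (the rule is given with the departures) whose upstream bases overlapped no annotated gene. Vcp and Marcksl1 lay below the chromosome, and Alpl and Cdkn2c above it. The 250 bases before the start of each gene, the outermost one where 2 were listed (Alpl and Cdkn2c), are from RefSeq (build GRCm38.p6). Capitals mark GC boxes (GGGCGG) and CCAAT boxes (CCAAT) on either strand, which are binding motifs of common promoter factors.
Vcp, chr4:43000508-43000757, minus strand: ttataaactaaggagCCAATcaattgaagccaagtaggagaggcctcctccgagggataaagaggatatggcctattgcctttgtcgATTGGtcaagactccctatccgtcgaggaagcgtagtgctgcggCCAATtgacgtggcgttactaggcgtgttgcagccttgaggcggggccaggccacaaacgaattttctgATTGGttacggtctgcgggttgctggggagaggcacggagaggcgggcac
Marcksl1, chr4:129513331-129513580, plus strand: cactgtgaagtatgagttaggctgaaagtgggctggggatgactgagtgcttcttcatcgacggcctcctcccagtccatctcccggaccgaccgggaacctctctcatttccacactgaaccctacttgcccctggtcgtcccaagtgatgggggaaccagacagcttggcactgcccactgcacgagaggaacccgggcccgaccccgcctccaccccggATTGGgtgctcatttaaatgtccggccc
Alpl, chr4:137796385-137796634, minus strand: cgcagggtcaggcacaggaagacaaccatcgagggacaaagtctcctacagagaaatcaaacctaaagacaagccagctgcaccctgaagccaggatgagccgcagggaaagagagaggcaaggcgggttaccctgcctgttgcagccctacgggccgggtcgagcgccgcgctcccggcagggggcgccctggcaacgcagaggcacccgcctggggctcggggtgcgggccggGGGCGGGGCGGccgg
Cdkn2c, chr4:109666757-109667006, minus strand: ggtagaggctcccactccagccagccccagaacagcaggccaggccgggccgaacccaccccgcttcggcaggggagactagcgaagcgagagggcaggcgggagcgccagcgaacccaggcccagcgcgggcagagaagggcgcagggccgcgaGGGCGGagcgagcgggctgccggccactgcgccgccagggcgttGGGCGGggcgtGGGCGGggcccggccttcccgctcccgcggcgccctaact
The Vcp window held 4 CCAAT boxes and 0 GC boxes, and that of Cdkn2c held 0 CCAAT boxes and 3 GC boxes. In 32 of the 36 members with a listed promoter, 71.9% held a GC box, against 37.8% of the 1632 chromosome 4 promoters and 33.0% of all 27025 promoters in the table. The wider sets took in every listed promoter, also of genes not measured here, and were not matched to the members in level. Member promoters were also richer in G and C, with a median of 61.4% of bases against 54.4% on chromosome 4 and 52% in all promoters, and the GC box consists of these bases. A CCAAT box was in 28.1% of the members and 34.5% of all promoters. The half-site of the progesterone receptor (AGAACA, either strand) was in 15.6% of the members and 16.2% of all promoters. A TATA box (TATAAA, either strand) was in 15.6% and 13.0%. The searches covered the same 250 bases in every promoter, and a match describes letters, not binding.

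Facts of the arrays that touch these genes were as follows. Values are on a log2 scale and array medians over all genes lay between 7.40 and 7.46. Correlations between arrays ran from 0.967 to 0.997. Pgr stood at 9.94 ± 0.16 in stage II (SD, n = 3), 9.15 ± 0.12 in stage I (n = 3) and 4.20 ± 0.28 in controls (n = 6), which separates the genotypes as labelled. Markers of oocytes (Zp3, Nlrp5, Oosp1 and Bmp15) and granulosa cells (Inha, Inhba, Inhbb and Amhr2) were measured in every group, with group means from 6.60 to 13.6. All 8 of these markers were lower in value in stage II than in controls, by medians of -0.78 and -0.79, and 5 measured macrophage and leukocyte markers were higher, by a median of 0.50. Other lists also had large stage II differences. Smooth muscle markers (5 measured, 4 of them lower, among them Acta2) had a median of -0.78. The theca and interstitium genes Cyp17a1 and Star stood at -2.68 and -0.17. The adipocyte genes Adipoq and Fabp4 stood at -3.34 and 2.47, and the epithelial genes Krt8 and Epcam at 3.59 and -0.67. The luteal genes Parm1, Akr1c18 and Ptgfr stood at 3.05, -2.57 and -0.57. The part of these cells in the chromosome 4 values was not tested.

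Across the 36 members, stage II stood lower than control by a median log2 difference of -0.20, which is 13.1% less on the linear scale. The other 590 genes of chromosome 4 had a median of -0.14, and the 10282 genes placed elsewhere had -0.01. Of the 36 members 30 lay below 0, against 53.3% of all genes. On all 3 stage II arrays 29 members lay below the control mean (33.9% of all genes) and 1 above it (25.5%). In bulk samples fewer cells of a type and less RNA per cell cannot be told apart. The stage I members had a median of -0.03 against control, beside -0.01 for the other chromosome 4 genes.

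By array, the median of the members was -0.17, -0.15 and -0.27 in stage II replicates 1, 2 and 3, and -0.09, -0.02 and -0.02 in stage I replicates 1, 2 and 3. Control arrays lay between -0.03 and 0.03. Every stage II median was thus below every stage I and control median, and stage I replicate 1 lay below all controls. The members also differed more among themselves in stage II replicate 3, where the SD over the 36 genes was 0.34, than in replicates 1 and 2, with 0.22 and 0.18. Replicate 3 held the lowest stage II value of 16 members, replicate 1 that of 12 and replicate 2 that of 8.

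**Figure D1:**
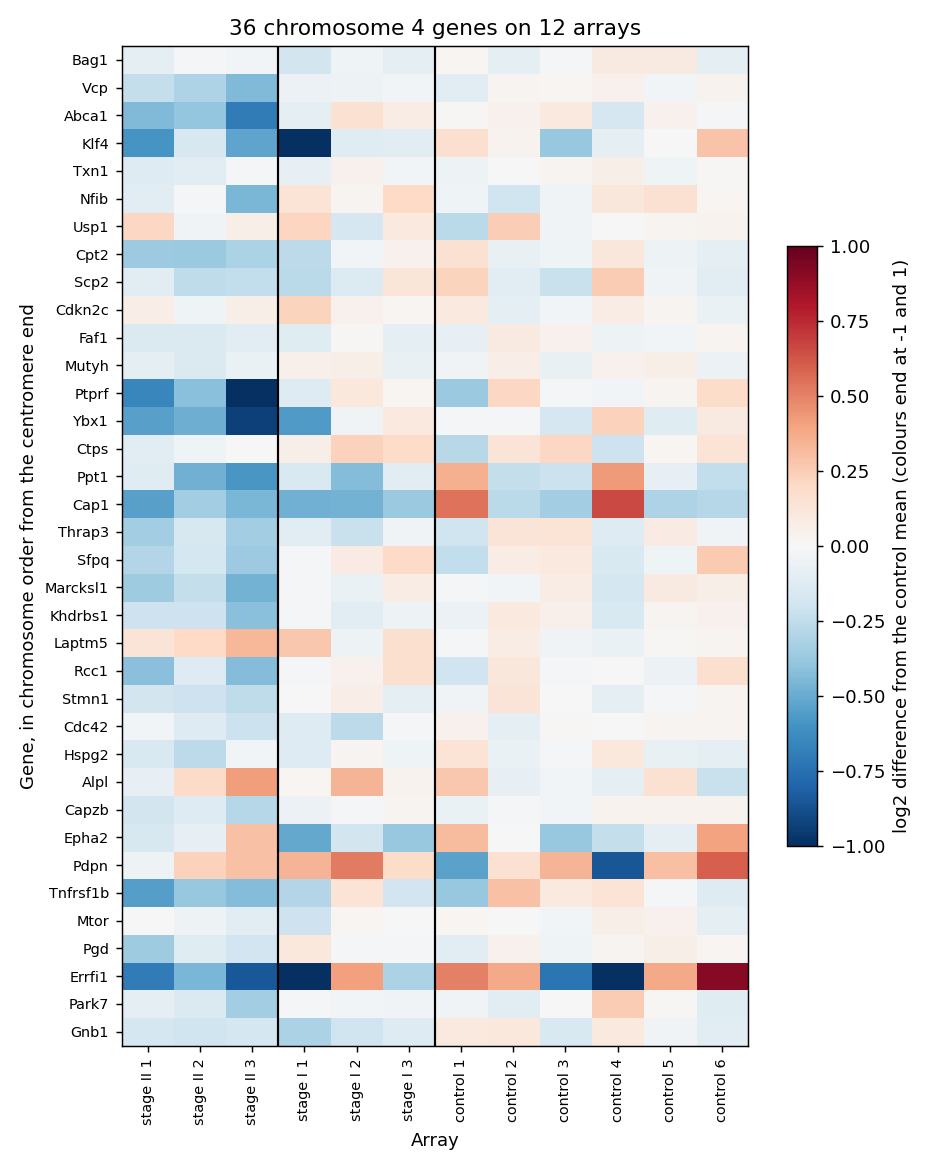
Log2 difference from the control mean for the 36 genes (rows, in chromosome order) on the 12 arrays (columns: stage II, stage I, control); blue is lower and red higher, with colours ending at -1 and 1. Most rows are blue on the 3 stage II arrays, while Laptm5 is red on all 3.

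The limma fit called 13 of the 36 members lower and 1 higher in stage II than in controls. Over all genes 11.2% were called lower and 9.81% higher. Because this contrast chose the chromosome, nothing is read from the count. It was 14 in all, 5 without stage II replicate 3 and 7 without stage II replicate 1. Over all genes the calls also fell, from 2302 to 1145 without replicate 3 and to 1719 without replicate 1. Against stage I, 5 members were called lower in stage II and 0 higher, with 5.97% and 6.54% of all genes called, and this comparison shares the stage II arrays. In 13 members every stage II array lay below every control array, as did 12% of all genes. The 1 member with every stage II array above every control was Laptm5, as held for 9.97% of all genes.

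Stage I was the comparison that the choice of the chromosome did not use, although its controls are the same arrays. Limma called 0 of the 36 members in stage I against control, with 0.192% of all genes called. At an unadjusted p under 0.05 there was 1 member, Gnb1, beside 6.38% of all genes. Gnb1, a beta subunit of heterotrimeric G proteins, had levels of 10.35, 10.33 and 10.35 in stage II and 10.21, 10.33 and 10.40 in stage I. Its controls ran from 10.37 to 10.63 with a median of 10.56. The difference of stage I from control was -0.21 ± 0.07 SE (limma, adjusted p = 0.576). Stage I and control arrays of Gnb1 overlapped at 10.37 to 10.40.

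Adjusted p-values of the members in stage I ran from 0.576 to 1. The differences ran from -0.44 in Klf4, a zinc-finger transcription factor, to 0.35 in Pdpn. In 23 members stage I was below 0, against 50.7% of all genes. Cap1, an actin-turnover protein, was the 1 member with all stage I arrays (9.41, 9.41 and 9.52) below all controls (9.54 to 10.55), as held for 1.45% of all genes, while 0 members had all stage I arrays above all controls (2.23% of all genes). Its stage II arrays (9.34, 9.54 and 9.43) ran over nearly the same values as stage I. Control replicates 1 and 4 stood high in Cap1, at 10.43 and 10.55, and the other 4 controls lay between 9.54 and 9.62.

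The 589 placed genes that are not members were put in order and divided into 12 successive blocks of 49 or 50 genes. The block medians of stage II minus control lay between -0.22 and -0.03, and all 12 were below the median of genes on other chromosomes. In stage I the block medians lay between -0.05 and 0.01. Among genes with a control mean of 8 or more, a level set after the values were seen, the stage II block medians lay closer together, between -0.31 and -0.19. Each such block held 17 to 25 genes.

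**Figure D2:**
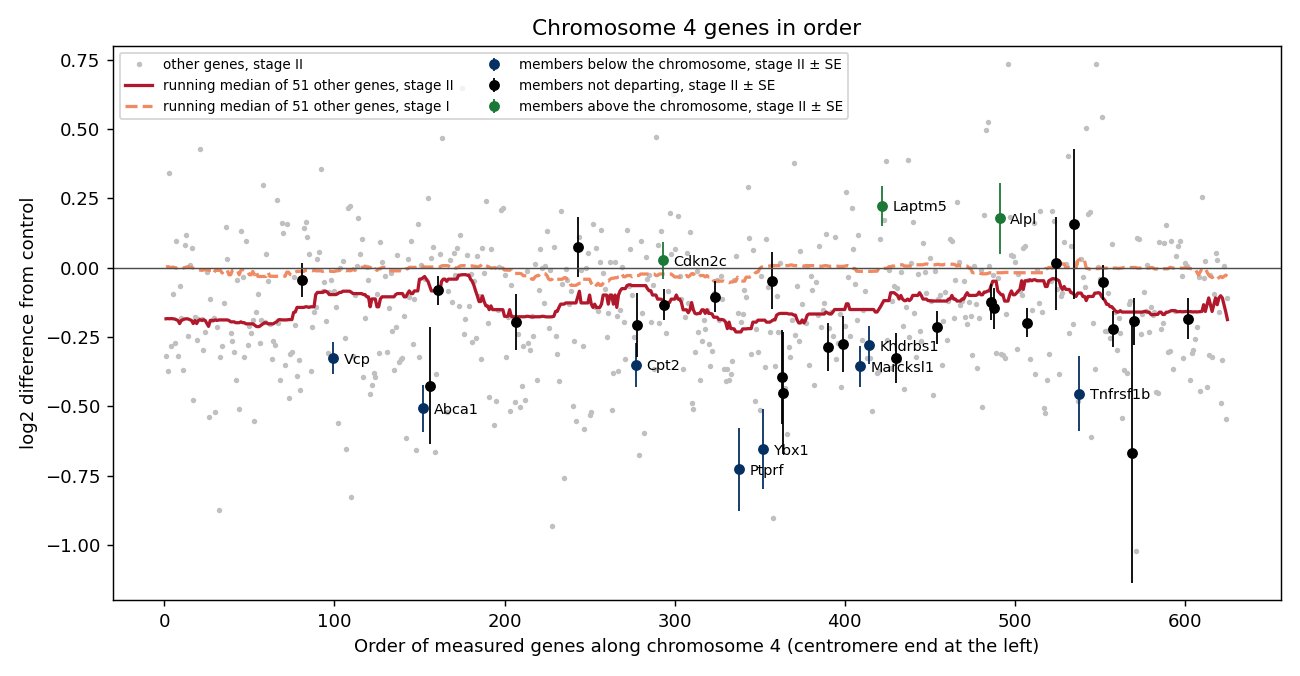
Log2 difference from control (y axis) against the order of the 625 placed genes along chromosome 4 (x axis), with members as points ± SE and the running median of 51 other genes as lines for stage II and stage I; 13 other genes lie outside the axis. The stage II line stays below 0 along the chromosome, with named members on either side of it.

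Member by member, the 12 nearest the centromere (Bag1 to Mutyh in order, with Vcp, Abca1, Klf4, Txn1, Nfib, Usp1, Cpt2, Scp2, Cdkn2c and Faf1 between) had a median of -0.16 in stage II. The next 12, from Ptprf to Stmn1, had -0.31, and the last 12, from Cdc42 to Gnb1, had -0.17. The middle members include Ptprf and Ybx1. The 5 nearest other genes on each side of a member had medians between -0.35 beside Nfib and 0.07 beside Cdkn2c and Faf1, and these medians were below 0 for 30 of the 36 members. Neighbours were taken at any level, and below a control mean of 6 the other chromosome 4 genes had a median of 0.01. Across the 36 members, Spearman's rho between a member and its neighbours was 0.27, given as a description because neighbouring windows share genes.

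Compared with the other chromosomes, chromosome 4 had the lowest median of 20 in stage II. Its 626 genes had a median of -0.14, and the 19 others lay between -0.08 and 0.03. On the single stage II arrays 1, 2 and 3 the chromosome 4 medians were -0.11, -0.13 and -0.18. The other chromosomes lay between -0.05 and 0 on replicate 1, between -0.05 and -0.01 on replicate 2 and between -0.15 and 0.08 on replicate 3. Every stage II array was below every control array in 29.2% of chromosome 4 genes, against 8.57% to 16.5% on the others.

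**Figure D3:**
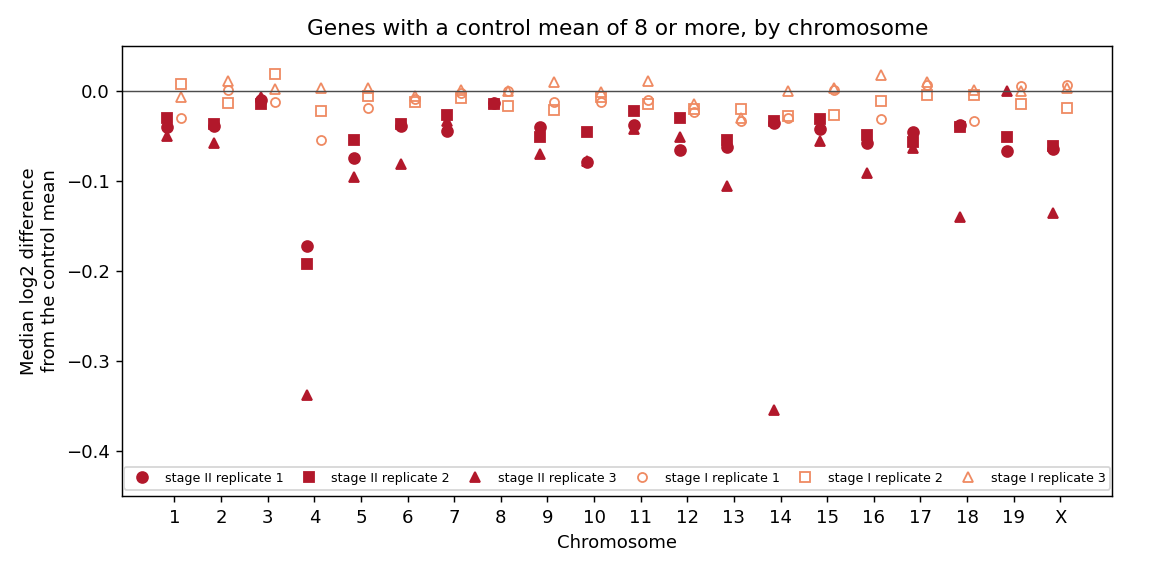
Median log2 difference from the control mean (y axis) over genes with a control mean of 8 or more, for each chromosome (x axis), on each stage II array (filled) and stage I array (open). Chromosome 4 is lowest on stage II replicates 1 and 2, at -0.17 and -0.19, and on replicate 3 chromosomes 14 and 4 stand at -0.35 and -0.34.

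The size of the difference varied with the level of the gene. Below a control mean of 6 the other chromosome 4 genes had a median of 0.01 in stage II against control, close to 0.02 for dim genes elsewhere. From 6 to under 8 their median was -0.16, from 8 to under 10 it was -0.25, and at 10 or more it was -0.23. Genes off chromosome 4 had -0.01, -0.05 and -0.06 in these 3 classes. The members had a median control mean of 10.2, against 7.43 for the other chromosome 4 genes, so the list holds mostly bright genes. In the classes from 8 to under 10 and of 10 or more the members stood at -0.17 (12 genes) and -0.22 (19 genes), and the 5 members from 6 to under 8 at 0.02. Background was not measured on these arrays.

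**Figure D4:**
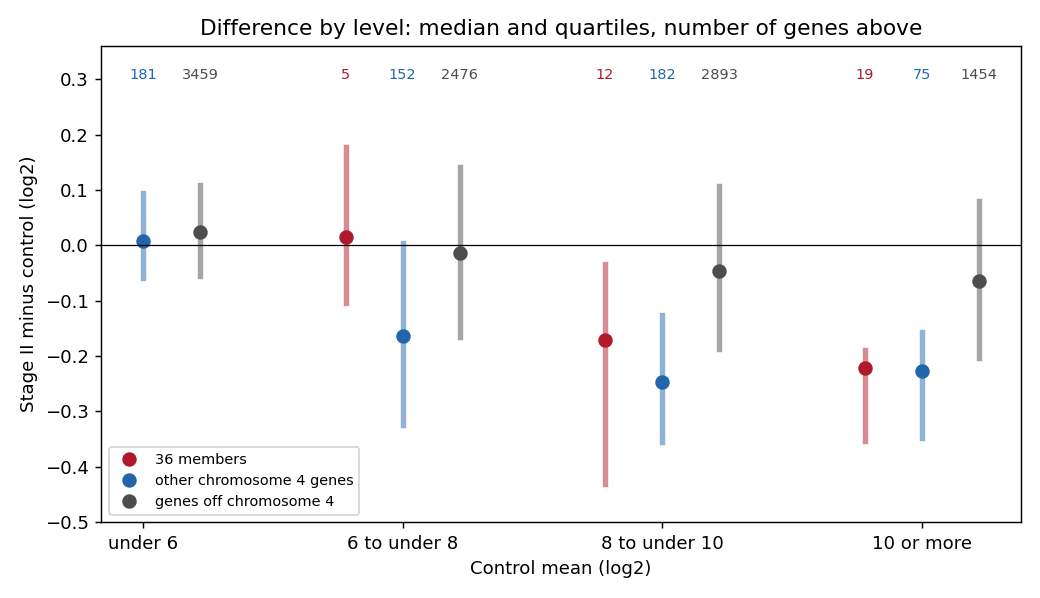
Stage II minus control (log2, y axis) in 4 classes of control mean (x axis), as medians (points) and quartiles (bars), for the 36 members, the other chromosome 4 genes and genes off chromosome 4, with the number of genes above each. From a control mean of 8 up, chromosome 4 genes sit near -0.2 and other genes near -0.05.

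Departures from a uniform difference were defined against the median of the other chromosome 4 genes, -0.14. A member departed where its stage II difference lay more than 2 of its own SE from that median and all 3 stage II arrays lay on the same side of it. By this rule 11 of 36 members departed, 8 below the chromosome and 3 above it, and 25 did not. Of all genes 7.69% lay below by this rule and 37.6% above. Among the other 590 chromosome 4 genes 40% departed, 19.3% below and 20.7% above, against 30.6% of the members. Departing was thus no more common among the members than along the rest of the chromosome. Usp1, at 1.96 SE, lay just outside the rule, and Khdrbs1, at -2.05 SE, just inside. Rcc1, the chromatin-bound exchange factor for Ran, was at -2.09 SE but did not have all 3 arrays on one side. Against the brighter chromosome 4 genes, with a control mean of 8 or more and a median of -0.24, 11 members departed again. Now 3 lay below and 8 above, which is 8.33% and 22.2% of the members. Those above were Bag1, Txn1, Usp1, Mutyh and Mtor, besides Alpl, Cdkn2c and Laptm5. Of the other chromosome 4 genes 7.29% lay below and 37.5% above by this measure, and of all genes 3.32% and 59.8%. These shares take in dim genes and were not matched to the members in level. With a control mean of 8 or more, 3 of 31 members lay below and 5 above (16.1%). Of the 257 other chromosome 4 genes at that level, 37 lay below and 45 above (17.5%). The 6 members that departed by both measures were Abca1, Ptprf and Ybx1 below and Alpl, Cdkn2c and Laptm5 above. As the second median is the lower one, a member above the first was bound to lie above the second too. A member below the second was likewise bound to lie below the first. In 22 refits with other settings or arrays, the median of the other chromosome 4 genes was taken anew each time. Abca1, Laptm5, Marcksl1, Ptprf, Vcp and Ybx1 departed from it in all 22 refits. Of these, Marcksl1 and Vcp did not depart from the median of the brighter genes. Khdrbs1 did not depart in 13 of the 22 refits, among them 9 of the 12 that left out 1 array.

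Among the 6 signalling members the median was -0.32 in stage II and 2 departed, both below. Ptprf encodes a receptor-type tyrosine phosphatase of cell junctions. Its levels were 9.24, 9.47 and 8.77 in stage II and 9.76, 9.99 and 9.91 in stage I, and controls ran from 9.51 to 10.10 with a median of 9.89. Every stage II array lay below every control and every stage I array, and replicate 3 lay lowest. Stage II differed from control by -0.73 ± 0.15 SE, which is 1.66-fold lower, the largest difference among the members. Stage I differed by 0.00 ± 0.15 SE (limma, adjusted p = 1). The other 2 Ptprf probe sets had stage II differences of -0.77 and -0.64.

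Tnfrsf1b, a receptor of tumor necrosis factor found on leukocytes and endothelium, had 7.46, 7.63 and 7.58 in stage II and 7.72, 8.15 and 7.82 in stage I. Its controls ran from 7.63 to 8.31 with a median of 8.05. The stage II arrays reached the lowest control, so the groups overlapped there. The stage II difference was -0.45 ± 0.13 SE, while the 10 neighbours, taken at any level, had a median of -0.01. Of these neighbours Tmem51 and Prdm2, with control means of 8.76 and 8.17, stood at -0.24 and -0.20. The others had control means under 8, with differences from -0.48 in Pramel13 to 0.50 in Zfp991. Tnfrsf1b did not depart without stage II replicate 1, with the dimmest 25 percent of genes left out, or against the median of the members.

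Errfi1 encodes a feedback inhibitor of the EGF receptor that is induced by growth stimuli. It had 9.95, 10.19 and 9.80 in stage II and 9.45, 11.06 and 10.33 in stage I. Its controls ran from 9.20 to 11.56 with a median of 11.03. The groups overlapped, and the stage II difference of -0.67 ± 0.47 SE was within 2 SE of 0. Control replicates 3 and 4 were low at 9.92 and 9.20, and the other 4 controls lay between 11.02 and 11.56. The growth-control kinase Mtor stood at -0.05 and the ephrin receptor Epha2 at 0.02 in stage II. Neither departed from the other chromosome 4 genes, while Mtor lay above the brighter of them by the same rule. In stage I the difference of Epha2 from control was -0.36 ± 0.17 SE (limma, adjusted p = 0.788).

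Of the 8 members in metabolism and redox defence the median was -0.20, and 3 departed. Abca1 exports cholesterol from cells to lipoproteins and is a regulator of lipid stores in steroid-making tissue. It had 11.81, 11.87 and 11.55 in stage II and 12.15, 12.40 and 12.32 in stage I. Its controls ran from 12.08 to 12.34 with a median of 12.27. Stage II and control did not overlap, and the difference was -0.51 ± 0.08 SE, which is 1.42-fold lower. Its second probe set had -0.50, and its 10 neighbours had a median of 0.02.

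Cpt2, the inner-membrane enzyme that passes long-chain fatty acids into mitochondrial oxidation, had 9.82, 9.82 and 9.87 in stage II and 9.92, 10.16 and 10.23 in stage I. Its controls ran from 10.09 to 10.33 with a median of 10.14, above all stage II arrays. Stage II differed from control by -0.35 ± 0.08 SE. Cpt2 did not depart without stage II replicate 1, with the dimmest 25 percent of genes left out, or against the median of the members. Alpl, tissue-nonspecific alkaline phosphatase, had 6.11, 6.38 and 6.60 in stage II and 6.21, 6.52 and 6.22 in stage I, with controls from 5.96 to 6.45 and a median of 6.13. Its groups overlapped, and it departed above the chromosome with 0.18 ± 0.13 SE against control. This departure of Alpl was lost without stage II replicate 2, and without replicate 3, where the difference was 0.06. It was lost also with array weights (0.03). The antioxidant thioredoxin gene Txn1 stood at -0.08, the nucleotide synthesis enzyme Ctps at -0.05, the pentose phosphate enzyme Pgd at -0.22, Park7, a redox-sensing chaperone, at -0.19, and the sterol carrier Scp2 at -0.21.

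Of the 6 members in protein turnover and the lysosome the median was -0.09, and 2 departed in opposite directions. Vcp, an ATPase that extracts ubiquitylated proteins for degradation, had 12.28, 12.21 and 12.08 in stage II and 12.46, 12.46 and 12.48 in stage I. Its controls ran from 12.41 to 12.56 with a median of 12.54. The stage II arrays lay below all others, with a difference of -0.33 ± 0.06 SE, and the controls were tightly grouped. Against the brighter chromosome 4 genes Vcp did not depart. Ppt1, a lysosomal thioesterase, had 10.01, 9.65 and 9.55 in stage II and 9.98, 9.69 and 10.03 in stage I. Its controls ran from 9.88 to 10.55 with a median of 9.98, and control replicates 1 and 4 were the high ones, as in Cap1. Ppt1 in stage II differed from control by -0.39 ± 0.17 SE. Faf1, a ubiquitin-binding partner of Vcp, stood at -0.13 and the co-chaperone Bag1 at -0.04.

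Laptm5, a lysosomal membrane protein of blood cells, was the member farthest above the chromosome. It had 7.99, 8.06 and 8.19 in stage II and 8.13, 7.81 and 8.02 in stage I. Its controls ran from 7.79 to 7.93 with a median of 7.85, below all stage II arrays. The stage II difference was 0.22 ± 0.07 SE and that of stage I 0.13 ± 0.07 SE (limma, adjusted p = 0.881). Of the 7 macrophage and leukocyte markers listed, 5 were measured, and the log2 of their summed level ran from 12.35 to 12.66 in stage II, from 11.93 to 12.64 in stage I and from 11.70 to 11.97 in controls. Ptprc and Csf1r, which define leukocytes and macrophages, stood 0.45 and 0.48 higher in stage II than in controls. The part of these cells in the Laptm5 value was not tested. Usp1, a deubiquitylase of DNA repair, had 8.68, 8.44 and 8.53 in stage II and 8.69, 8.30 and 8.57 in stage I, within its control range of 8.20 to 8.72 (median 8.48).

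Of the 9 members acting on DNA, RNA and transcription the median was -0.28, and 3 departed. Ybx1, an abundant RNA-binding protein with a cold-shock domain, had 12.03, 12.08 and 11.64 in stage II and 12.01, 12.54 and 12.67 in stage I. Its controls ran from 12.40 to 12.80 with a median of 12.55. All stage II arrays lay below the controls, as did stage I replicate 1. The stage II difference was -0.65 ± 0.14 SE, which is 1.57-fold lower, and that of stage I -0.17 ± 0.14 SE (limma, adjusted p = 0.949).

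Khdrbs1, a splicing regulator, had 10.06, 10.06 and 9.86 in stage II and 10.26, 10.16 and 10.22 in stage I, with controls from 10.12 to 10.37 and a median of 10.31. The stage II arrays lay below the controls, with a difference of -0.28 ± 0.07 SE. Cdkn2c, an inhibitor of the cyclin-dependent kinases of G1 phase, had 10.00, 9.89 and 9.99 in stage II and 10.16, 9.98 and 9.95 in stage I. Its controls ran from 9.83 to 10.03 with a median of 9.93. All 3 groups overlapped. The stage II difference was 0.03 ± 0.07 SE, above the chromosome, a departure that was lost without stage II replicate 3. Its 10 neighbours had a median of 0.07. The splicing factor Sfpq stood at -0.27, the transcription and RNA-processing factor Thrap3 at -0.29, the developmental factor Nfib at -0.20 and the DNA glycosylase Mutyh at -0.10.

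Rcc1 had 7.47, 7.76 and 7.45 in stage II and 7.88, 7.93 and 8.04 in stage I, with controls from 7.68 to 8.05 and a median of 7.88. Replicate 2 of stage II lay inside the control range and the other 2 below it, and the stage II difference was -0.33 ± 0.09 SE. Klf4 had 7.86, 8.29 and 7.92 in stage II and 7.34, 8.33 and 8.35 in stage I, with controls from 8.07 to 8.73 and a median of 8.47. Its low stage I value was that of replicate 1 alone. Klf4 differed from control by -0.43 ± 0.21 SE in stage II and by -0.44 ± 0.21 SE in stage I (limma, adjusted p = 0.788).

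Of the 7 members of the cytoskeleton, cell surface and matrix the median was -0.20, and 1 departed. Marcksl1, an actin-associated calmodulin-binding protein, had 10.35, 10.47 and 10.23 in stage II and 10.69, 10.64 and 10.78 in stage I. Its controls ran from 10.53 to 10.79 with a median of 10.72, above all stage II arrays. The stage II difference was -0.36 ± 0.07 SE and that of stage I was 0.00 in size (limma, adjusted p = 0.999). Against the brighter chromosome 4 genes Marcksl1 did not depart. The actin capping subunit Capzb stood at -0.20, the microtubule regulator Stmn1 at -0.21, the small GTPase Cdc42 at -0.12, the basement membrane proteoglycan Hspg2 at -0.15 and Cap1 at -0.45.

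Pdpn, a surface glycoprotein of lymphatic endothelium and mesothelium, had 9.53, 9.82 and 9.88 in stage II and 9.93, 10.11 and 9.77 in stage I. Its controls ran from 8.73 to 10.19 with a median of 9.81. The groups overlapped, and the stage II difference was 0.16 ± 0.27 SE. Control replicates 1 and 4 were low, at 9.05 and 8.73. Of the 4 lymphatic and mesothelial markers listed only the lymphatic genes Lyve1 and Prox1 were measured. Lyve1, a hyaluronan receptor also found on some macrophages, averaged 8.52 in stage II, 8.08 in stage I and 7.57 in controls. Prox1, the transcription factor that defines lymphatic endothelium, stood near the lowest values in the table, at 3.40 in stage II, 3.41 in stage I and 3.53 in controls, so the pair did not move together. The part of these cells in the Pdpn value was not tested.

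**Figure D5:**
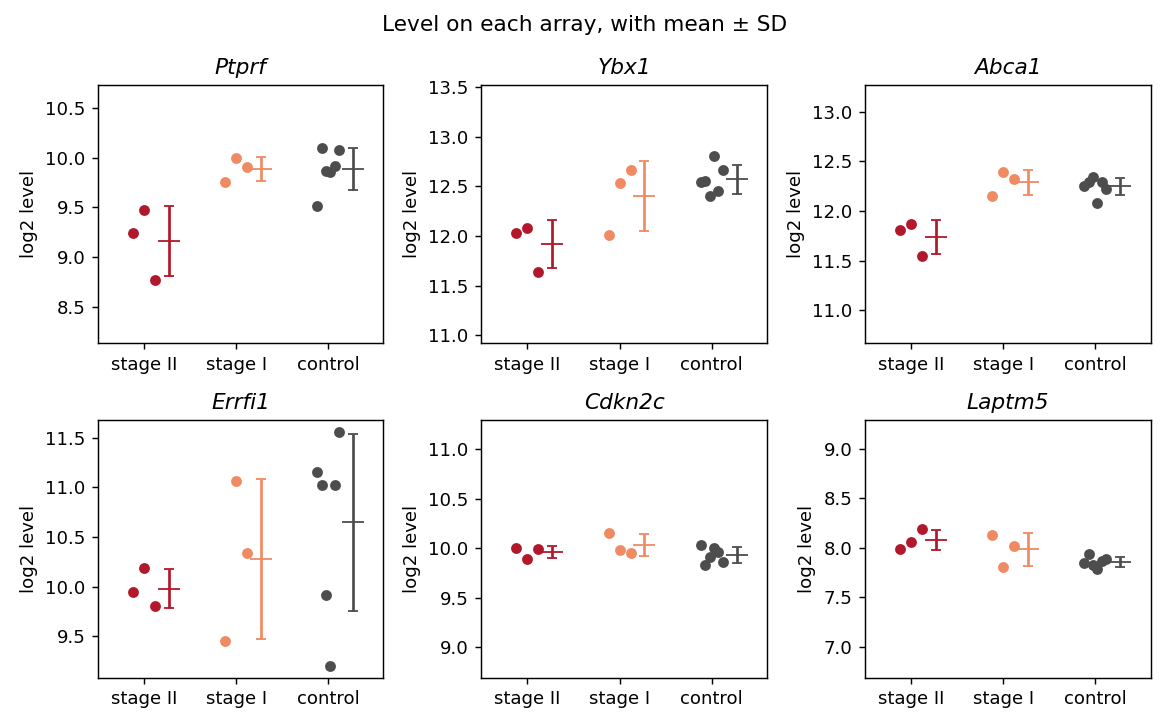
Log2 level (y axis, the same span in each panel) of 6 genes on every array by group (x axis), with mean ± SD beside the points. Ptprf, Ybx1 and Abca1 lie lower in stage II than in controls with no overlap, Errfi1 overlaps widely, Cdkn2c overlaps in all groups, and Laptm5 in stage II lies above all controls.

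Of the 36 members 16 had further probe sets, 22 in all, and 17 of these 22 lay below 0 in stage II. Scp2 was a case of disagreement. Its brightest probe set stood at -0.21 in stage II and another, with a control mean of 8.41, at 0.15. The Usp1 probe sets differed in sign, at 0.08 for the one used and -0.02 for the other. For Hspg2 the second probe set stood at -0.31, against -0.15 for the one used.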

How the data were processed

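Ovary RNA from 12 samples had been measured on expression arrays, with genes named by the platform annotation. The authors deposited 1 log2 value for each of 16376 probe sets and array, the scale being settled from the values (2.69 to 14.4). How they were summarised or normalized was not given in the sources used here. Precision is limited by the number of arrays. Of the probe sets 14674 had 1 symbol, 427 several and 1275 none, and 14632 matched the RefSeq gene table (GRCm38.p6), used for names and gene order. The probe set with the highest mean stood for each of 10949 genes. Limma 3.58.1 in R 4.3.3 fitted 3 group means to all arrays (9 residual degrees of freedom), with Benjamini-Hochberg adjustment over all genes and a threshold of 0.05, and was tested on simulated data. SE are those of the model. Members, role groups and marker lists were chosen with earlier results of these data known. The rule for named genes took the 5 lowest and 5 highest stage II differences, members called in stage I and departing members, and examples of each role group. Of other chromosome 4 genes it took the 5 farthest on each side of the chromosome median, with predicted genes and clone symbols left out. Alternatives were other scalings, filters, probe set rules, model settings, left-out arrays and departure rules. The level of 8 and 1 joint leaving-out of arrays were chosen after the values were seen.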

Additional observations from a re-analysis of the deposited data

Results flagged for a closer look

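Nfib, a transcription factor of development, stood below the control mean on all 3 stage II arrays and above it on all 3 stage I arrays, with a stage II difference of -0.20. Limma did not call the difference of stage II from stage I (-0.32 ± 0.12 SE). The second Nfib probe set, with a control mean of 5.56, ran the other way, at 0.02 in stage II and -0.11 in stage I. Cdc42 had 1 low control, replicate 2 at 11.47 against 11.57 to 11.61 in the others, with a gap of 0.720 of the range. Park7 had 1 high control, replicate 4 at 11.06 against 10.68 to 10.82, with a gap of 0.634 of the range. The control medians of the other chromosome 4 genes (gap 0.696) and of genes off chromosome 4 (gap 0.638) each had replicate 4 high, at 0.02 and 0.03. Of 39 control groups looked at, 4 had a gap past Dixon's critical value for 6 samples, and chance gives about 1 in 20.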

How the results depend on the processing

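The median of the members in stage II against control lay between -0.23 and -0.18 with each array left out in turn, and that of the other chromosome 4 genes between -0.16 and -0.12. Stage I medians of the members lay between -0.05 and -0.01, and 0 members were called in stage I under any alternative run. With the dimmest 25 percent of genes left out the median of the other chromosome 4 genes was -0.20, the dim genes having medians near 0. Members called in stage II against control numbered 5 to 15 with single arrays left out, and 4 in a fit with a replicate block. With that block 6 genes in all were called in stage I, against 21, and 1090 in stage II, against 2302. Control replicates 4, 5 and 6 had no stage I or stage II array of their number. They therefore added nothing to the group differences in that fit. Same-numbered arrays of the stages and controls had deviations correlated between -0.13 and 0.20, and 1 of 3 stage II arrays correlated best with the stage I array of its number, so the numbers were not taken as pairs. Departing members numbered 8 to 14 with single arrays left out, and 5 (Abca1, Laptm5, Ptprf, Vcp and Ybx1) when 3 SE were required. With the replicate block 9 departed, Alpl and Khdrbs1 no longer among them. With stage II replicate 3 and control replicates 1 and 4 left out together, chosen after the values were seen, the members stood at -0.17 and the other chromosome 4 genes at -0.11. Of 756 values of single members in stage II (36 members under 21 settings), 25 from 11 members shifted by more than the SD between replicates. The sign changed in 7 values of Epha2 and Pdpn, and in 0 of the members that limma called. Epha2 stood at -0.12 without stage II replicate 3 and Pdpn at -0.14 with array weights. Quantile normalization, centring of array medians over all genes or over genes off chromosome 4, the mean of probe sets, array weights, a trended and robust prior and fits of only the compared groups kept the medians within the spread between replicates.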

Other observations

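Among the other genes of chromosome 4, 2 passed limma's threshold in stage I, and several had stage II values far from the chromosome median. Pdzk1ip1, a small membrane protein, had 9.97, 9.83 and 9.92 in stage II, 8.55, 7.55 and 6.79 in stage I and 5.63 to 6.09 in controls, and its stage I level was 3.44-fold that of controls (limma, adjusted p = 0.015). Fabp3, a fatty acid binding protein of muscle, was 3.14-fold its control level in stage I (limma, adjusted p = 0.015) and 5.23-fold in stage II. Tmod1, which caps actin filaments, Tinagl1, a matrix protein, and Slc25a33, a mitochondrial carrier, were 4.01-fold, 3.77-fold and 3.38-fold higher in stage II. Lowest in stage II minus control were Tnc, the matrix protein tenascin C (-1.59), and Tnfrsf9, a costimulatory receptor (-1.02 ± 0.53 SE). Tnfrsf9 lay within 2 SE of the chromosome median, and its stage II arrays (5.19 to 6.91) overlapped the controls (6.09 to 7.58). Next came Elavl2, an RNA-binding protein (-0.93), Cited4, a transcriptional co-activator (-0.90), and Osgin2 (-0.87).

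Chromosome 14 stood low on 1 stage II array, a chromosome chosen after its values were seen. Its 173 genes with a control mean of 8 or more had medians of -0.04, -0.03 and -0.35 in stage II replicates 1, 2 and 3. Chromosome 4 had -0.17, -0.19 and -0.34 on the same arrays over 288 genes. No test was made of this difference.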
